A study of Rattus norvegicus with 8 samples.

Results

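P2ry1 nuclei were chosen by 2 conditions on raw counts of unique molecular identifiers (UMIs, each standing for 1 captured RNA molecule): at least 1 UMI of P2ry1, and a sum of at least 2 UMIs over the neuronal genes Slc17a6, Snap25 and Scn10a. Of 36741 nuclei from rat nodose ganglia, 31172 (84.8%) met the neuronal condition, and 1054 of these also held P2ry1. This was a share of 3.38% of neurons (exact 95% binomial interval 3.18 to 3.59%, which covers counting error only). The 30118 neurons without a P2ry1 UMI served as the comparison group and are called the other neurons here. P2ry1 itself therefore carries no test between these 2 groups. The label of vagal neurons held for most of the P2ry1 nuclei and not for all of them: 355 (33.7%) lay in clusters that also carried markers of glia, connective tissue, vessels or muscle, against 19.2% of the other neurons. For this reason they are called P2ry1 nuclei and not P2ry1 neurons.

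P2RY1 is a receptor for extracellular ADP that couples through Gq proteins to phospholipase C, which raises inositol trisphosphate and releases calcium from internal stores. Vagal sensory neurons have their cell bodies in the nodose ganglion and the neighbouring jugular ganglion and carry signals from the airways, heart and gut to the brainstem. In mice, P2ry1 marks vagal sensory neurons known for their part in breathing control and in airway-protective reflexes such as swallowing, and many of these have fast-conducting myelinated fibres.

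The ganglia came from Long Evans rats, 18 male and 18 female, aged 8 weeks and not exposed to any experimental procedure. Left and right ganglia were kept apart, and those of 6 rats were combined into 1 pool, which gave 3 pools for each labelled sex and side and 12 in all. Fixed nuclei were barcoded by split pooling and sequenced as 8 sublibraries, each of which held nuclei of every pool, so the pool is the replicate throughout. Left and right pools of a sex drew on the same 18 rats, single animals cannot be told apart within a pool, and p-values measure the spread between pools only. Pools held 1738 to 4849 nuclei and 7140286 to 19456287 UMIs (median 10878172). The nuclei carried 34798 combinations of well barcodes, of which 1865 occurred in more than 1 sublibrary. Y-linked Kdm5d and Eif2s3y went against the sex label in 2 pools: male left replicate 1 had 2.13 CPM (UMIs of a gene scaled to a common total) of the 2 genes together and female left replicate 1 had 87.9 CPM, so the P2ry1 level, the share of neurons with P2ry1 and the counts of genes called by sex are given with and without these pools.

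P2ry1 was sparse in the nuclei that held it. Of the 1054 P2ry1 nuclei, 869 had 1 UMI, 125 had 2 and the highest count was 7. Each pool contributed 48 to 145 of them (median 76.5), and each sublibrary 123 to 143. The share of neurons with P2ry1 ran from 2.34 to 4.39% over the 12 pools (median 3.37%). P2ry1 nuclei were deeper than the other neurons, with a median of 5972 UMIs (quartiles 3200 and 10715) against 3043 (1872 and 5002), and with 2853 detected genes against 1734. Among neurons ordered by depth, P2ry1 was detected in 1.16% of those with 779 to 1683 UMIs and in 8.56% of those with 5873 to 50009 UMIs, while its level was 9.35 and 12.3 CPM. The comparisons of genes and of cluster shares between P2ry1 nuclei and the other neurons were therefore repeated against other neurons of the same pool matched for UMIs.

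Around the neuronal threshold the nuclei differed little. The 62 P2ry1 nuclei with exactly 2 UMIs of the neuronal genes had a median of 2154 UMIs and 3789 CPM of 10 glial markers. The 66 just outside, with 1 UMI, had 1688 UMIs and 4442 CPM. Another 56 had none of the neuronal UMIs.

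Neuronal markers were plentiful in P2ry1 nuclei. The summed level of 13 neuronal markers, 3 of which the rule used, was 14618 CPM, with pools from 12038 to 19229, against 10981 CPM in the other neurons, with pools from 10330 to 11737. The higher sum came from few of them: 8 of the 13 were lower in P2ry1 nuclei and 5 higher, and the medium neurofilament gene Nefm alone stood at 5422 against 1690 CPM. Without the genes of the rule and the neurofilament genes Nefm and Nefl, the other 8 markers summed to 4759 against 5350 CPM. The 10 nodose markers summed to 718 against 596 CPM, and the sum was higher in 11 of 12 pools. Most of it was P2rx3 (476 against 262 CPM). Slc17a7 and Phox2a were higher too, while the remaining nodose markers were lower, among them Htr3a (70.8 against 117 CPM), P2rx2, Hoxb5, Gpr65, Cckar and Npy2r. The 9 jugular markers measured summed to 252 against 199 CPM, and that sum was higher in 9 pools. Markers of other cells moved with the group as well. The 8 satellite glia markers summed to 1235 CPM (pools 784 to 1707) against 598 (pools 369 to 906), and the 8 markers of myelinating Schwann cells to 997 against 725 CPM, both higher in all 12 pools. The 9 markers of sympathetic neurons or chromaffin-type cells summed to 321 against 167 CPM, also higher in all 12. Most of that sum was Chgb (199.9 against 90.3 CPM) and Chga (73.7 against 42.2 CPM). Th, Ddc, Slc6a2 and Npy were higher too, while Dbh, Slc18a1 and Slc18a2 were lower. At least 3 UMIs of glial markers were found in 42.0% of P2ry1 nuclei and 17.1% of the other neurons. Deeper nuclei pass this fixed cut more easily, and P2ry1 nuclei were deeper. Scaled for depth, the 10 glial markers summed to 685 against 434 CPM. Fibroblast markers stood at 341 against 221 CPM, mast cell markers at 47.7 against 23.6 CPM with Cpa3 and Tpsb2 at 0 in P2ry1 nuclei, and macrophage markers at 26.6 against 16.4 CPM with Aif1 at 0. Nearly all of the mast cell sum was Kit, at 47.38 against 22.65 CPM, and Ms4a2 was lower. Endothelial markers were lower, at 75.04 against 94.3 CPM. Their part in the results was not tested. Outside the clusters with markers of other classes, satellite glia markers were still 568 against 244 CPM, and nuclei with at least 3 glial UMIs 22.8% against 7.38%. The 10 glial markers summed there to 258 against 182 CPM.

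P2ry1 was also read outside neurons. It was found in 122 of the 5569 nuclei that failed the neuronal condition (2.19%, 14.5 CPM, median depth 1301 UMIs). Among nuclei with at least 5 UMIs of a class's markers and none of Slc17a6, Snap25 or Scn10a, it was found in 5 of 85 with satellite glia markers (5.88%, exact 95% interval 1.94 to 13.2%, median depth 1559 UMIs) and in 12 of 287 with markers of myelinating Schwann cells (4.18%, 2.18 to 7.19%, 1216 UMIs). It was found in 2 of 80 with fibroblast markers (2.50%, 0.304 to 8.74%, 1619 UMIs) and in 1 of 64 with skeletal muscle markers (1.56%, 0.0396 to 8.40%, 1141 UMIs). It was found in none of 89 with endothelial markers (exact upper limit 4.06%, median depth 1369 UMIs) and in none of 76 with mural cell markers (upper limit 4.74%, 1340 UMIs). These intervals cover counting error only. All 6 include the 3.38% of all neurons, which were deeper. Neurons of 779 to 1683 UMIs held P2ry1 in 1.16%, at 9.35 CPM. That share lies below the intervals of the satellite glia and myelinating Schwann cell sets and inside the others. P2ry1 stood at 33.6 CPM (5 UMIs) and 29.9 CPM (12 UMIs) in these 2 sets. Depth was not matched here, and the difference was not tested.

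To see which neurons held P2ry1, all 31172 neurons were clustered without P2ry1 and the neuronal genes of the rule, and the share of P2ry1 nuclei in each cluster was compared with that of the other neurons of the same pool. Of 30 clusters, 18 (60.0%) differed at an adjusted p under 0.05 in an exact sign-flip permutation test over the 12 pools, 8 with a larger and 10 with a smaller share of P2ry1 nuclei. Clusters are numbered by size and named here by their leading genes. The highest P2ry1 levels were in 5 neuronal clusters: a small one led by Poteg, Kcnj6, Cdh9 and Kcnd3 (cluster 27), one led by Spp1, Kcna1, Syt2 and Nefh (23), one led by Gabrg1, Syndig1 and Tmem196 (24), one led by Tmem233, Spon1 and Tacr1 (14) and one led by Pappa2, Csmd3 and Nox4 (15). Together they held 413 P2ry1 nuclei (39.2%) in 2513 nuclei that made up 8.06% of neurons. They also held 121 of the 185 P2ry1 nuclei with at least 2 UMIs (65.4%). Their P2ry1 level was 52.6 CPM, against 3.23 CPM in the remaining neurons outside clusters with markers of other classes, where 286 P2ry1 nuclei lay.

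In cluster 27, 61 of 176 nuclei held P2ry1 (34.7%, 155 CPM). In cluster 23 it was 81 of 309 (26.2%, 109 CPM) and in cluster 24, 69 of 273 (25.3%, 73.2 CPM). Cluster 14 had 120 of 1001 (11.99%, 38.7 CPM) and cluster 15 had 82 of 754 (10.9%, 28.1 CPM). These levels are a description of the nuclei that were clustered. The pools scattered widely in the small clusters: P2ry1 in cluster 27 ran from 0 to 316 CPM (median 159), in cluster 23 from 13.999 to 198 CPM (median 88.2), and in cluster 14 from 8.96 to 53.7 CPM (median 37.8). The 3 ranges overlapped.

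As a share of the P2ry1 nuclei of a pool, cluster 14 took 3.57 to 18.8% (median 12.3%), a mean of 11.5 ± 4.14% (SD, n = 12) against 2.87 ± 0.373% of the other neurons. It was higher in 12 of 12 pools (adjusted p 0.00122, exact sign-flip permutation test). The unadjusted p of 0.000488 was the smallest that 12 pools could give. Cluster 23 took 1.19 to 14.3% (median 7.92%) against a mean of 0.777%, also in 12 of 12 pools. Cluster 24 took 0 to 16.9% (median 6.65%) against 0.656%, and cluster 15 took 0 to 14.5% (median 6.72%) against 2.21%. Both were higher in 11 of 12 pools, with exact adjusted p of 0.00209 and 0.00293. Cluster 27 took 0 to 14.8% (median 4.41%) against 0.379%, higher in 10 pools and lower in 1 (exact adjusted p 0.00366). Each of these 5 clusters kept a larger share under depth matching.

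A further neuronal cluster led by Tafa1, Calca and Tac1 (cluster 7) held 80 P2ry1 nuclei of 1693 (4.73%, 11.8 CPM), and its share was 7.18 ± 4.86% of P2ry1 nuclei against 5.49 ± 4.18% of the other neurons, higher in 9 of 12 pools (exact adjusted p 0.0207). Calca encodes the neuropeptide CGRP and Tac1 encodes substance P.

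The largest single group of P2ry1 nuclei sat in a cluster led by satellite glia genes. Cluster 6, led by Apoe, Tyrp1, Fbln2 and Kcnj10 and with all 8 satellite glia markers at least 2-fold higher than in other clusters, held 192 P2ry1 nuclei of 1910 (10.1%, 25.02 CPM). It took 8.33 to 25.4% of the P2ry1 nuclei of a pool (median 17.6%) against a mean of 5.48 ± 1.71% of the other neurons, higher in 12 of 12 pools (exact adjusted p 0.00122). Without nuclei that held 3 or more glial UMIs the excess dropped from 12.2 to 1.55 percentage points and was not called (exact adjusted p 0.0907). Cluster 16, led by the myelin gene Prx and by Mlip, held 47 P2ry1 nuclei of 749 (6.28%). Its excess of 2.58 points turned to -0.0693 points when such nuclei were left out (exact adjusted p 0.00419), since none of its P2ry1 nuclei then remained.

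P2ry1 was scarcest in large neuronal clusters with other leading genes. The largest cluster, led by Fhip1a and Kirrel3, held 15 P2ry1 nuclei of 3397 (1.57 CPM) and took 1.52% of P2ry1 nuclei against 11.4% of the other neurons. The cluster led by Gdpd4 and Itgae took 1.45 against 8.97%, the cluster led by Tafa4, Esr1 and Crhr2 took 0.576 against 7.26%, and the cluster led by Itm2a, Sez6l and Tafa4 took 0.540 against 5.90%. The cluster led by Xylt1, Sctr and Cckar, receptors for secretin and cholecystokinin among them, took 0.739 against 5.11%. Each of these 5 shares was lower in 12 of 12 pools (exact adjusted p 0.00122). P2ry1 stood at 0.545 to 1.65 CPM in these 5 clusters, and the part of free RNA in so few UMIs was not tested.

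**Figure D1:**
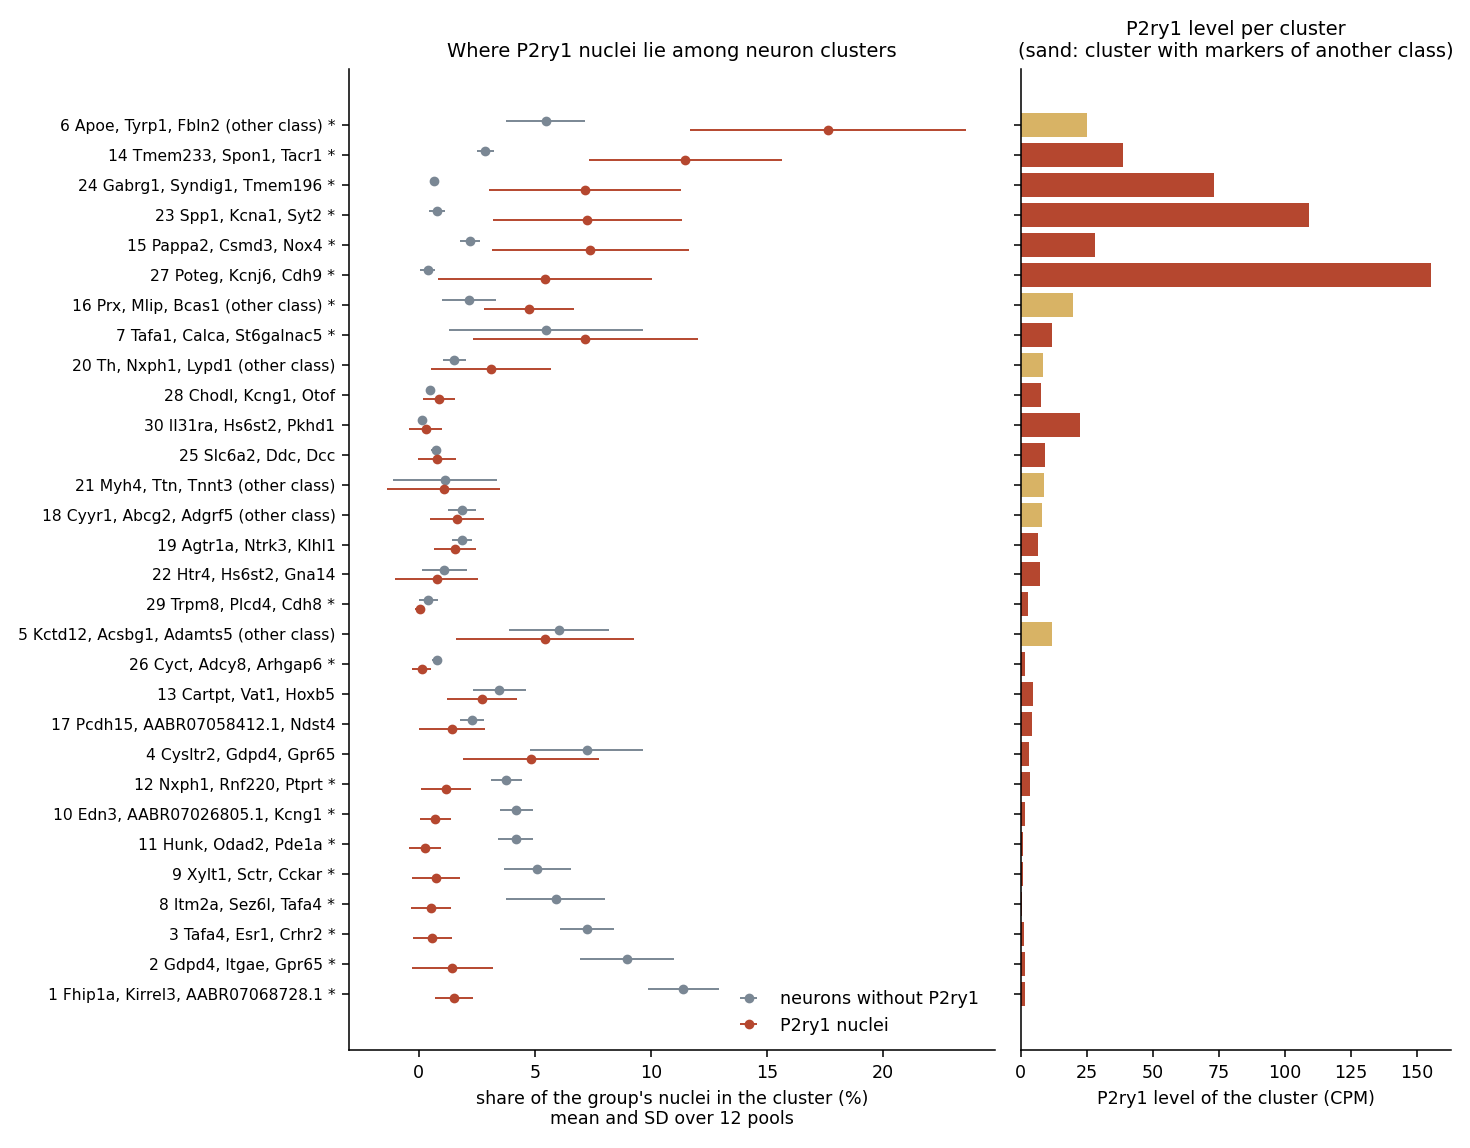
Share of nuclei in each of 30 clusters (percent, left) for P2ry1 nuclei and for the other neurons, as mean and SD over 12 pools, and the P2ry1 level of each cluster (CPM, right); sand colour marks clusters with markers of other cell classes and an asterisk marks an exact adjusted p under 0.05. The P2ry1 level peaks at 155 CPM in cluster 27, while cluster 6 takes the largest share of P2ry1 nuclei, 17.6%.

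P2ry1 nuclei of these clusters were not of 1 kind. Piezo2, the mechanically gated channel of touch and stretch receptors, was read in all P2ry1 nuclei of cluster 27 (2263 CPM), in 98.6% of those in cluster 24 (1644 CPM) and in 98.3% of those in cluster 14 (1266 CPM). In cluster 15 it was read in 43.9% of P2ry1 nuclei, at 163 CPM. Nefh, the heavy neurofilament subunit of large myelinated fibres, stood at 6264 CPM in P2ry1 nuclei of cluster 23 and at 179 CPM in those of cluster 27. Slc17a7, the vesicular glutamate transporter VGLUT1, was read in 60.9% of P2ry1 nuclei of cluster 24, in 44.4% of those in cluster 23 and in none of the 61 in cluster 27.

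Markers of the jugular ganglion also split these nuclei. Prdm12, a transcription factor of neural crest-derived sensory neurons, stood at 202 CPM in P2ry1 nuclei of cluster 27 and 96.2 CPM in those of cluster 7, against 2.70 CPM in cluster 14, 2.78 CPM in cluster 24 and 3.75 CPM in cluster 15. P2rx3, an ATP-gated channel typical of nodose neurons, was 964 CPM in P2ry1 nuclei of cluster 15, 976 CPM in cluster 23 and 149 CPM in cluster 27. Kcnj6, an inwardly rectifying potassium channel, was read in 98.4% of P2ry1 nuclei of cluster 27 and in 5.00% of those in cluster 14. The GABA-A receptor subunit gene Gabrg1 was read in 94.2% of P2ry1 nuclei of cluster 24, in 63.0% of those in cluster 23 and in 3.28% of those in cluster 27.

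**Figure D2:**
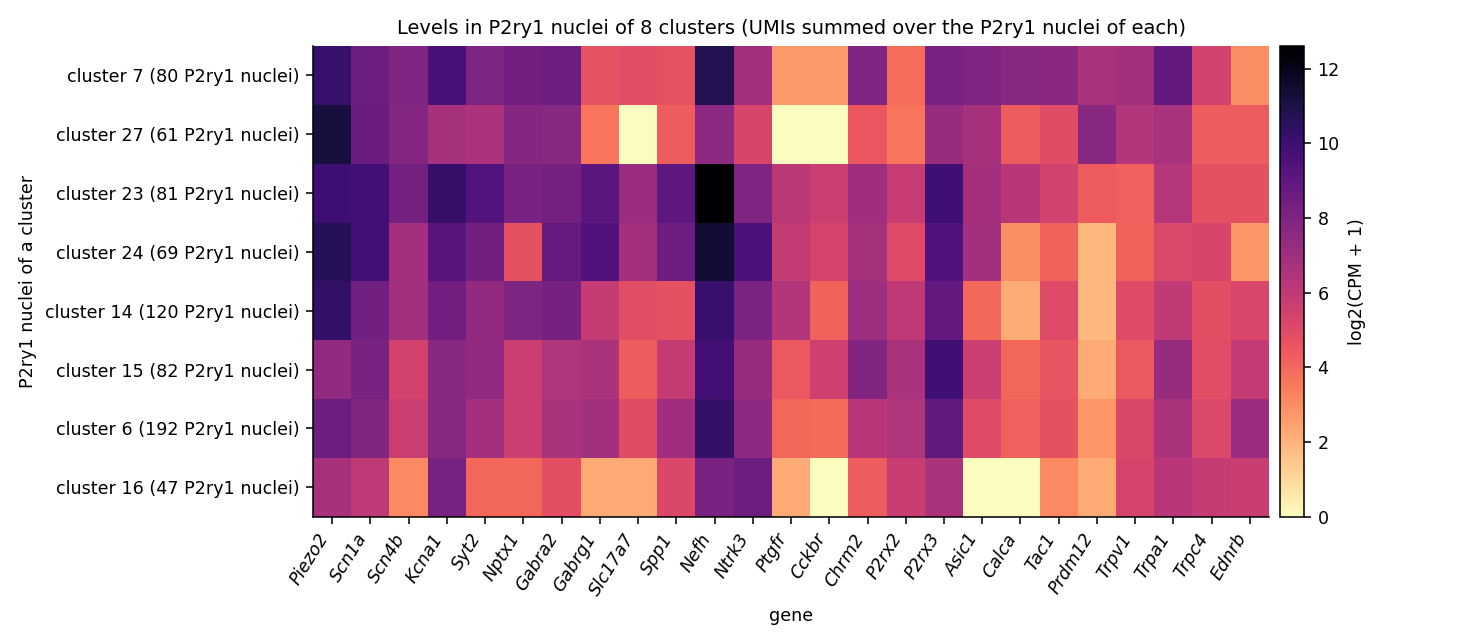
Level of 25 genes in P2ry1 nuclei of 8 clusters, as log2(CPM + 1) of UMIs summed over the P2ry1 nuclei of each cluster. Spp1, Nefh and Slc17a7 are high in clusters 23 and 24, Piezo2 is high in clusters 27, 24 and 14, and no Slc17a7 was read in cluster 27.

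Gene by gene, P2ry1 nuclei were next compared with the other neurons of the same pool, on UMIs summed per pool, with edgeR's quasi-likelihood test and the pool as a block. Of 12308 genes tested, 2771 (22.5%) were higher and 2353 (19.1%) lower in P2ry1 nuclei at a Benjamini-Hochberg adjusted p under 0.05. Against depth-matched neurons 3221 of 9632 genes were called, and 2845 genes were called in the same direction in both fits. In 737 genes (5.99%) the 12 pools of the 2 groups did not overlap. The median log2 fold change over all genes was 0.02. Fold changes compare groups of mixed cluster makeup, so a shift in the proportion of clusters and a change within them cannot be told apart here.

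The gene with the largest increase among those named was Slc17a7. It ran from 14.99 to 52.8 CPM over the 12 pools of P2ry1 nuclei (median 30.9) and from 2.81 to 6.32 CPM in the other neurons (median 4.39), with a log2 fold change of 2.88 ± 0.16 (SE) and an adjusted p of 5.93e-17. The groups did not overlap, and 17.2% of P2ry1 nuclei held Slc17a7 against 2.85% of depth-matched neurons. Spp1, the secreted phosphoprotein osteopontin and a marker of large-diameter sensory neurons, ran from 60.1 to 208 CPM (median 104) against 15.4 to 23.5 CPM (median 17.0), a log2 fold change of 2.60 ± 0.12 (adjusted p 1.16e-18). Every pool of P2ry1 nuclei lay above every pool of the other neurons.

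Gabrg1 and Gabra2, subunit genes of GABA-A receptors, were among the 15 genes named as higher. Gabrg1 ran from 72.3 to 295 CPM (median 135) against 21.3 to 34.9 CPM (median 26.1), a log2 fold change of 2.41 ± 0.11. Gabra2 ran from 127 to 216 CPM (median 169) against 25.4 to 83.2 CPM (median 42.9), at 1.89 ± 0.09. In neither gene did the groups overlap, and their edgeR adjusted p were 1.51e-18 and 4.5e-18. GABA-A receptors are chloride channels opened by GABA, which depolarises many sensory neurons at their terminals.

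Scn4b, Kcna1 and Syt2 were named by the same rule. Scn4b, an auxiliary sodium channel subunit tied to resurgent current, ran from 55.3 to 150 CPM (median 80.1) against 13.5 to 37.1 CPM (median 21.99), a log2 fold change of 1.95 ± 0.08. Kcna1, the Kv1.1 potassium channel of myelinated axons, ran from 217 to 493 CPM (median 322) against 80.5 to 124 CPM (median 82.2), at 1.83 ± 0.09. Syt2, the calcium sensor of fast transmitter release, ran from 91.5 to 226 CPM (median 176) against 32.1 to 61.0 CPM (median 41.2), at 1.92 ± 0.08. The groups did not overlap in any of the 3. The remaining 7 genes named by the same rule were Itga11 (2.23), Ptgfr (2.16), Nptx1 (2.10), Tlcd3b (1.99), Mab21l2 (1.96), Cacna1i (1.91) and Cdh9 (1.88), with log2 fold changes in parentheses. Pools overlapped in Nptx1, Cacna1i and Cdh9. Ptgfr encodes the prostaglandin F receptor, Nptx1 the synaptic protein neuronal pentraxin, and Cacna1i a T-type calcium channel.

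Among the genes that were lower, Itpr1, which encodes the inositol trisphosphate receptor type 1 downstream of Gq, fell in every pool. It ran from 89.6 to 191 CPM in P2ry1 nuclei (median 135) and from 363 to 436 CPM in the other neurons (median 395), with a log2 fold change of -1.60 ± 0.07 (adjusted p 4.36e-20). Itpr1 was read in 43.5% of P2ry1 nuclei and in 70.3% of depth-matched neurons. Trpc4, a receptor-operated cation channel, ran from 32.0 to 102 CPM (median 66.0) against 190 to 276 CPM (median 246), at -1.88 ± 0.09 (adjusted p 3.82e-18). Esr1, the oestrogen receptor alpha, ran from 5.46 to 24.9 CPM (median 11.4) against 35.2 to 53.6 CPM (median 44.8), at -1.86 ± 0.13. Neither gene overlapped between the groups. Cckar, the cholecystokinin receptor of gut-projecting vagal neurons, ran from 2.94 to 21.0 CPM (median 8.69) against 16.2 to 43.9 CPM (median 31.7), and here the pools overlapped although the gene was lower in 12 of 12 (-1.60 ± 0.16). The remaining 8 were St18 (-2.04), Fhip1a (-1.88), Rspo4 (-1.81), Pde9a (-1.69), Slc45a3 (-1.66), Slc44a5 (-1.66), the leak potassium channel gene Kcnk3 (-1.63) and the nitric oxide synthase gene Nos1 (-1.61), with log2 fold changes in parentheses.

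All 26 of these named genes were also called, in the same direction, without the clusters that carried markers of other classes. The genes had been chosen from the full fit, and this fit reused 699 of the 1054 P2ry1 nuclei and 24337 of the 30118 other neurons. It is therefore no independent check of them. In that fit 2361 of 11637 genes (20.3%) were higher and 2031 (17.5%) lower. Slc17a7 then stood at a log2 fold change of 3.18, Spp1 at 3.21, Itpr1 at -1.65 and Trpc4 at -1.84. With depth matching as well, Cacna1i and Cdh9 were not tested, and the other named genes were called in the same direction.

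**Figure D3:**
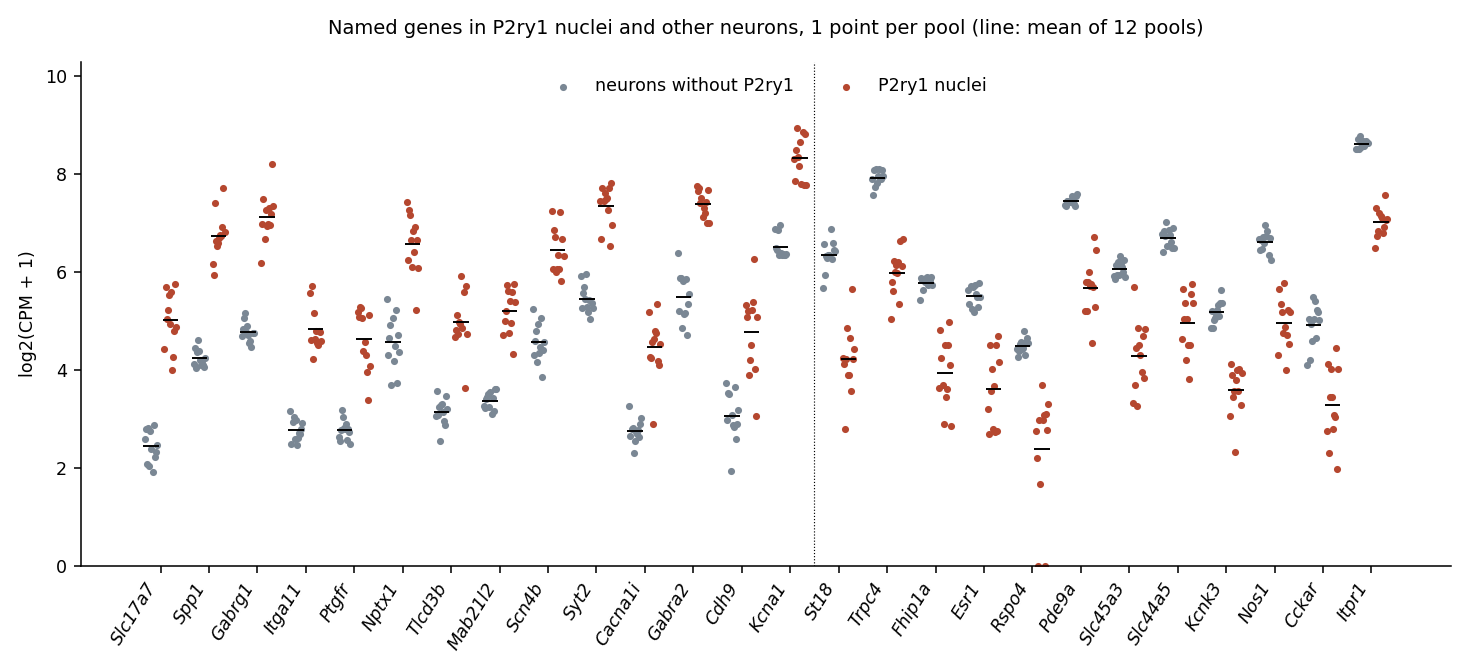
Level of 26 named genes in each of 12 pools, as log2(CPM + 1), for P2ry1 nuclei and for the other neurons; each point is 1 pool and each line the mean of 12. The groups are apart in 11 of the 14 genes that were higher and in 11 of the 12 that were lower. Over all 12308 genes tested they are apart in 737 (5.99%). The genes shown were chosen from these same pools by fold change and direction, so their separation is no further support.

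Gene lists were then read against the 22.5% of all genes called higher and the 19.1% called lower. Of 12 purinergic receptors other than P2ry1 that were tested, 6 were higher, 2 lower and 4 not called, with a median log2 fold change of 0.48. Against depth-matched neurons the list was evenly split, with 3 of 8 higher and 3 lower (median 0.24). Without the clusters of other classes 3 of 11 were higher and 2 lower (median 0.32), and with both changes 2 of 7 were higher and 2 lower (median 0.21). P2rx3, a subunit of the ATP-gated channels of vagal afferents, ran from 332 to 574 CPM (median 468) in P2ry1 nuclei against 238 to 304 CPM (median 271), at 0.79 ± 0.05 (adjusted p 5.36e-15), with no overlap. Its partner subunit P2rx2 went the other way, from 39.9 to 103 CPM (median 69.0) against 68.1 to 139 CPM (median 98.5), at -0.44 ± 0.08 (adjusted p 1.79e-05), lower in 11 of 12 pools with overlapping ranges. P2rx6 (0.91) and the adenosine receptor gene Adora2a (1.12) were higher and the UTP receptor gene P2ry4 lower (-0.82). The calls of P2rx7 (0.58) and of the second ADP receptor gene P2ry12 (0.59), both known as genes of glia or macrophages, were lost without the clusters of other classes (0.31, adjusted p 0.0577, and 0.32, adjusted p 0.41), and P2rx5 (0.67) was not tested there. P2ry2, P2ry14, P2rx4 and Adora1 were not called. Adora2a and P2rx5 were not tested under depth matching.

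Of 10 genes for nucleotide release and breakdown, 3 were higher and 1 lower, with a median of 0.03. Enpp2, the secreted enzyme autotaxin that also cleaves nucleotides, ran from 118 to 319 CPM (median 243) against 70.8 to 96.3 CPM (median 84.5), at 1.45 ± 0.08 (adjusted p 2.52e-16), with no overlap. Panx2 (0.47) and Entpd4 (0.38) were higher and Panx1, a channel that releases ATP, was lower (-0.53). Entpd3 and Nt5e, which act at the cell surface on ATP and AMP, were not called, at 0.02 and -0.31.

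The Gq pathway downstream of the receptor leaned downwards. Of 22 genes tested, 5 were higher, 11 lower and 6 not called (median -0.26). Gnaq, which encodes the Gq alpha subunit, ran from 414 to 678 CPM (median 483) against 606 to 746 CPM (median 668), at -0.46 ± 0.05 (adjusted p 1.2e-09), lower in 11 of 12 pools. Plcb3, a phospholipase C of sensory neurons, ran from 87.6 to 197 CPM (median 145) against 275 to 369 CPM (median 318), at -1.12 ± 0.08 (adjusted p 3.47e-14), with no overlap. Beside Itpr1, the diacylglycerol kinase genes Dgki (-1.28), Dgkg (-0.96) and Dgkb (-0.61) and the protein kinase C genes Prkcd (-0.76) and Prkce (-0.50) were lower too. The isoforms that were higher belonged to the same steps: Itpr3 ran from 66.0 to 152 CPM against 27.5 to 76.6 CPM (0.98 ± 0.07), and Prkcb from 215 to 495 CPM against 149 to 242 CPM (0.98 ± 0.07), both higher in 12 of 12 pools with overlapping ranges. Rasgrp1, Rgs2 and Itpr2 were the other 3 that were higher, and Rasgrp1 was not tested under depth matching. Plcb4 and Dgkh lost their call under depth matching (adjusted p 0.202 and 0.126), and Itpr2 lost it without the clusters of other classes (adjusted p 0.0516).

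Mechanical, thermal and acid channels split by type. Of 22 tested, 5 were higher, 11 lower and 6 not called (median -0.26). Piezo2 ran from 486 to 1041 CPM (median 667) in P2ry1 nuclei against 167 to 370 CPM (median 256), at 1.52 ± 0.06 (adjusted p 1.65e-20), with no overlap. It was read in 66.8% of P2ry1 nuclei and 33.6% of depth-matched neurons, and its log2 fold change was 1.83 without the clusters of other classes. The acid-sensing channel genes Asic1 (1.35) and Asic3 (0.61) were higher, as were Tmem63a and Tmem63b. Tmem63a was not tested under depth matching. Trpa1, the channel for irritants, ran from 74.1 to 225 CPM (median 145) against 293 to 407 CPM (median 357), at -1.19 ± 0.08 (adjusted p 3.89e-15). Trpv1, the capsaicin receptor, ran from 24.7 to 68.9 CPM (median 42.3) against 69.6 to 95.4 CPM (median 84.6), at -0.91 ± 0.10 (adjusted p 9.28e-10). Neither overlapped between the groups. Tmc3 (-1.08) and Trpm3 (-0.69) were lower, while Piezo1 (-0.24) and the cold channel gene Trpm8 (-0.09) were not called.

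Most receptors by which vagal neurons are usually sorted were lower. Of 27 tested, 17 were lower, 4 higher and 6 not called, with a median of -0.56. Beside Esr1 and Cckar, the lower ones included Sctr (-1.84), Cysltr2 (-1.40), Npy2r (-1.22), Crhr2 (-1.19), Gpr65 (-1.12), Oprm1 (-1.06) and Glp1r (-0.80). Npy2r was near the limit of the data, at 1.65 CPM against 4.92 CPM on average. The serotonin receptor gene Htr3a ran from 51.8 to 85.7 CPM (median 67.8) against 88.2 to 155 CPM (median 117), at -0.77 ± 0.07, with no overlap. Cckbr, the second cholecystokinin receptor, went up: it ran from 7.96 to 27.9 CPM (median 16.1) against 3.20 to 6.45 CPM (median 4.45), at 1.95 ± 0.17 (adjusted p 3.7e-12), with no overlap. Ednrb, the endothelin receptor B, ran from 33.7 to 93.3 CPM against 14.7 to 30.8 CPM (1.22 ± 0.10), and Chrm2, the M2 muscarinic receptor, from 50.6 to 178 CPM against 50.9 to 88.3 CPM (0.78 ± 0.09). Ednrb was 137 CPM in P2ry1 nuclei of cluster 6 and 5.57 CPM in those of cluster 24, and was still higher without the clusters of other classes (1.41). Pgr, at 4.52 against 2.56 CPM, was the last of the 4. Cckbr, Pgr and Npy2r were not tested under depth matching.

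Genes of large myelinated neurons leaned upwards, 9 of 12 higher, 2 lower and 1 not called, with a median of 1.04. Nefh ran from 941 to 2301 CPM (median 1479) against 391 to 529 CPM (median 446), at 1.65 ± 0.08 (adjusted p 4.5e-18), with no overlap. Nefm (1.59), Nefl (1.02), Cntn1 (1.48), Ntrk3 (1.06) and Cntnap1 (0.64) were higher and did not overlap either. Runx3, a transcription factor of proprioceptors and mechanoreceptors, was higher (1.71) at a level of 7.54 against 2.40 CPM, and was not tested under depth matching. Ntrk2 (-0.59) and Ank3 (-0.17) were lower. Under depth matching the median was 0.63, with 7 of 11 higher and 1 lower, and Thy1 and Ank3 lost their calls (adjusted p 0.222 and 0.448). Among 7 neurotrophin and GDNF family receptors, 2 were higher, Ntrk3 among them, and Ngfr (-0.73) and Ntrk2 were lower. Without the clusters of other classes 5 were higher and 2 lower. Under depth matching 2 of 7 were higher and 3 lower, and with both changes 3 of 6 were higher and 3 lower. Ret was called higher without those clusters and lower in both depth-matched fits.

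Voltage-gated channels changed in both directions. Of 11 sodium channel genes, 5 were higher, 3 lower and 3 not called (median 0.14). Scn1a, the Nav1.1 channel of fast-firing neurons, ran from 261 to 562 CPM (median 321) against 98.0 to 133 CPM (median 125), at 1.51 ± 0.07 (adjusted p 7.96e-19), with no overlap. Scn8a (0.53) was higher and Scn9a, the Nav1.7 channel, was lower (-0.36). Of 31 potassium and HCN channel genes, 10 were higher and 13 lower, with a median of 0.05. Kcna2 ran from 383 to 794 CPM against 184 to 291 CPM (1.31 ± 0.06), with no overlap. Kcnq3, part of the M-current, ran from 236 to 614 CPM against 765 to 1259 CPM (-1.47 ± 0.06), and Kcnc2 (-1.59) and the calcium-activated Kcnma1 (-1.04) were lower as well, with no overlap in the 3. Under depth matching the split of this list was 13 higher and 10 lower of 28. Of 15 calcium channel subunit genes, 5 were higher and 9 lower (median -0.33): the T-type genes Cacna1i (1.91) and Cacna1g (0.82, too low to be tested under depth matching) and the beta subunit Cacnb3 (0.68) rose, while Cacna1e (-1.38), Cacna1h (-0.98) and Cacna2d1 (-0.78) fell.

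Identity factors and peptides also went both ways. Of 18 transcription factors tested, 5 were higher, 9 lower and 4 not called (median -0.27). Under depth matching 2 of 14 were higher and 9 lower. The jugular factors Prdm12 (1.02 ± 0.16) and Drgx (1.18 ± 0.14) were higher in 11 of 12 pools, Prdm12 from 2.17 to 46.8 CPM against 2.03 to 23.4 CPM, with wide overlap. Pou4f1 (1.67) and Runx3 were higher too, but neither was tested under depth matching. Hoxb5 (-0.41), Hoxb3 (-0.68), Etv1 (-0.55) and Eya1 (-0.60) were lower. Of 10 peptide and transmitter genes, Slc17a7, Tac1 (0.71), Tafa1, Tafa2 and Calca (0.51) were higher and Tafa4 (-1.30), Edn3, Adcyap1 (-1.08), Cartpt (-0.82) and Bdnf (-0.57) lower. The median of that list was -0.03, and 0.07 without the clusters of other classes. The call of Calca was lost under depth matching (0.27, adjusted p 0.275), and Edn3 was not tested there.

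**Figure D4:**
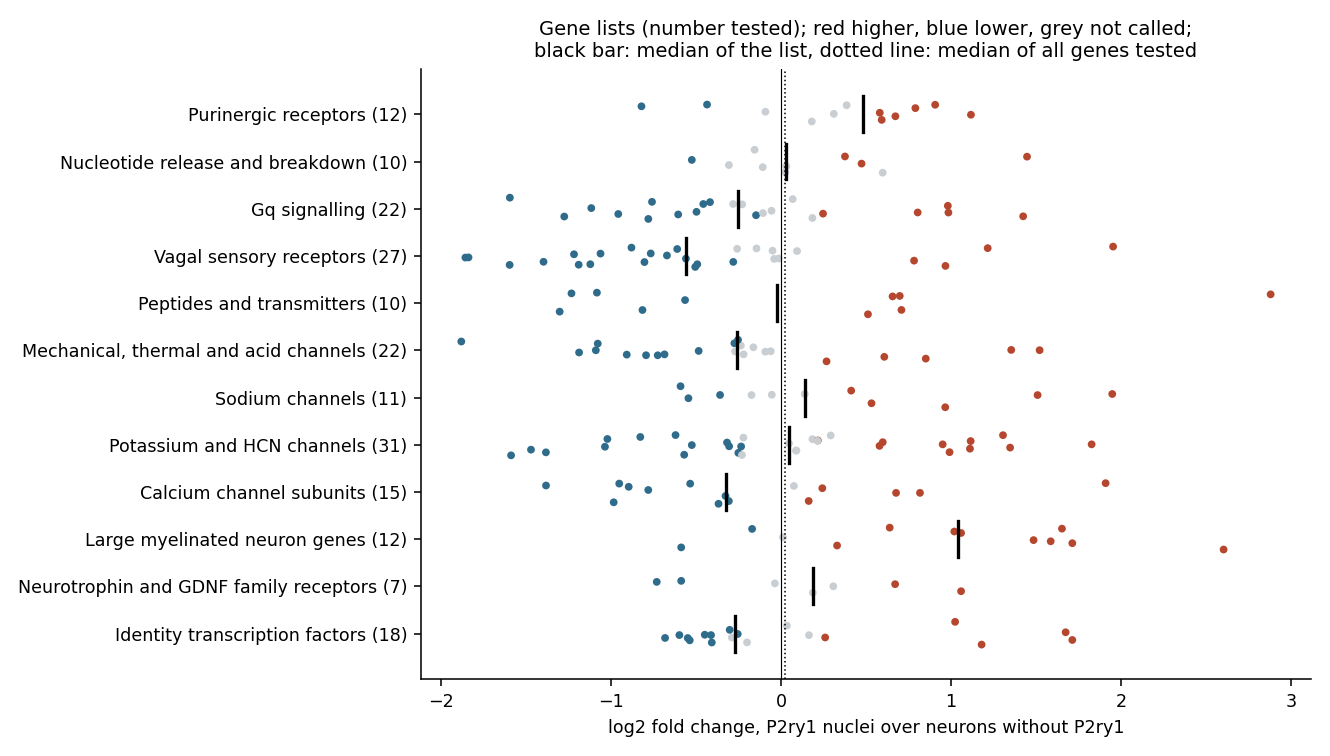
Log2 fold change of every tested gene of 12 lists between P2ry1 nuclei and the other neurons, 1 point per gene (red called higher, blue called lower, grey not called), with the median of each list as a black bar and that of all genes as a dotted line. Large-myelinated genes lie mostly above 0, with a median of 1.04, and vagal sensory receptors mostly below, with a median of -0.56; purinergic receptors have a median of 0.48, and 0.24 under depth matching.

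Differences within clusters were read next, to see whether P2ry1 nuclei differed from neighbours of the same cluster. In cluster 6, with 192 P2ry1 nuclei and 1718 others, 254 of 5623 genes (4.52%) were called by edgeR, 160 higher and 94 lower. Each pool gave only 4 to 34 of these P2ry1 nuclei. The genes with the largest increase were Gabra2 (1.68 ± 0.19), Chn2 (1.24), Dach1 (1.10), Piezo2 (1.09 ± 0.10), Spp1 (1.08), Kcna1 (1.04), Zfp385d (1.03) and Scn1a (1.01). Gabra2 ran from 46.0 to 190 CPM (median 108) against 14.4 to 75.4 CPM (median 25.8), higher in 12 of 12 pools with overlapping ranges (adjusted p 9.62e-09). Piezo2 ran from 132 to 716 CPM (median 418) against 140 to 279 CPM (median 195), higher in 11 of 12 pools (adjusted p 1.01e-11). Trpc4 (-1.11), C1ql3 (-0.91), Kcnc2 (-0.84), Cartpt (-0.82), Ass1 (-0.82), Necab1 (-0.81), Plcb3 (-0.78) and Arhgef3 (-0.77) were lower. Cartpt lost its call without the 2 pools against their sex label (-0.74, adjusted p 0.0967), without male right replicate 3 (-0.71, adjusted p 0.064), without female left replicate 1 (-0.77, adjusted p 0.0631) and without female right replicate 3 (-0.71, adjusted p 0.1).

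Cluster 14, which held the most P2ry1 nuclei of the clusters without markers of other classes, was added after the data had been seen. There 964 of 3207 genes (30.1%) were called between 120 P2ry1 nuclei and 881 others, 550 higher and 414 lower, and 598 of 2019 against depth-matched nuclei of the cluster. Each pool gave only 3 to 20 of these P2ry1 nuclei, and the smallest pool sum held 14710 UMIs. The neurofilament genes Nefh (1.43 ± 0.14) and Nefl (1.37 ± 0.15), Cd59 (1.34), the sodium pump subunit Atp1b1 (1.34), Gabarapl1 (1.31), Nptx1 (1.31) and Dynll2 (1.31) were among the leading increases. Nefh ran from 221 to 1859 CPM (median 1353) against 264 to 928 CPM (median 393), higher in 11 of 12 pools (adjusted p 1.71e-09). Adamts16 (-2.90 ± 0.35), Col6a5 (-1.27), Robo1 (-1.25), Fgf14 (-1.20), Marchf1 (-1.14), Trpa1 (-1.13), Abi3bp (-1.10) and Tbc1d4 (-1.10) led the decreases. Adamts16 was lower in 11 of 12 pools, but ran from 0 to 1032 CPM (median 4.34) in P2ry1 nuclei against 217 to 658 CPM in the others. Marchf1, a leading gene of the cluster itself, ran from 413 to 1449 CPM (median 733) against 1507 to 2090 CPM (median 1718), with no overlap (adjusted p 8.31e-09). Genes of satellite glia were also higher in P2ry1 nuclei of cluster 14. Apoe, which cluster 6 was led by, averaged 452 against 179 CPM (1.47 ± 0.19, adjusted p 2.07e-07), higher in 9 of 12 pools and also called under depth matching (1.49). The 8 satellite glia markers summed to 733 CPM there (pools 84.2 to 1243) against 291 CPM in the others (pools 162 to 621), higher in 9 of 12 pools, and 7 of the 8 were higher. The 8 markers of myelinating Schwann cells summed to 577 against 435 CPM, higher in 8 of 12 pools, with Pllp and Cldn19 at 0 in the P2ry1 nuclei. Within cluster 6 both sums were lower in P2ry1 nuclei, at 3013 against 3122 CPM and 1159 against 1281 CPM. P2ry1 nuclei of cluster 14 had a median of 7486 UMIs against 3014, and those of cluster 6 had 6885 against 3445. The depth-matched others had medians of 4348 UMIs in cluster 14 and 6276.5 UMIs in cluster 6. Depth matching was therefore incomplete in cluster 14, and its matched calls, that of Apoe among them, are not free of depth. The part of glial RNA and of depth in these differences was not tested beyond the depth-matched fits.

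The design also allowed P2ry1 to be compared between left and right ganglia and between the labelled sexes. By side, the P2ry1 level of all neurons was 10.9 ± 2.15 CPM in the 6 left pools and 9.84 ± 2.31 CPM in the 6 right pools (SD), a log2 fold change of -0.16 ± 0.11 for right against left, which edgeR did not call (adjusted p 0.796). In the same fit 10 of 14271 genes (0.0701%) were called. That count was 1 to 7 when any 1 pool was left out, 2 without the 2 pools against their sex label and 4 with the replicate block, and it was 27 without the low-count filter and 45 by DESeq2. Without the clusters of other classes the log2 fold change was -0.29 (adjusted p 0.815). The share of neurons with P2ry1, computed as if each neuron had 2000 UMIs and without shallower neurons, was 1.77 ± 0.289% on the left and 1.63 ± 0.311% on the right (difference -0.138 points, exact permutation p 0.315). Unthinned, it was 3.70 ± 0.440% and 3.12 ± 0.463% (exact permutation p 0.07). Thinning left out 2974 neurons of left and 5565 of right pools, and the other neurons had medians of 3370 and 2923 UMIs, averaged over left and right pools.

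By labelled sex, the 6 male pools had 12.9, 10.2, 13.6, 13.3, 9.37 and 11.6 CPM of P2ry1 in neurons and the 6 female pools 9.56, 8.29, 8.31, 7.23, 10.9 and 8.60 CPM, so the groups overlapped. TMM-normalised means were 11.9 ± 1.76 CPM and 8.82 ± 1.35 CPM (SD), a log2 fold change of -0.44 ± 0.11 for female against male with an unadjusted edgeR p of 0.00144. After adjustment over 14271 genes it was not called (adjusted p 0.181), and neither was any other gene (0%), although 1892 genes had an unadjusted p under 0.05. DESeq2 called it (-0.45, adjusted p 0.0481) among 99 genes. Without the 2 pools against their sex label the level differed by -0.44 ± 0.14 and was not called (edgeR adjusted p 0.212), while 35 of 14169 genes were. The count of genes called was 64 without male right replicate 1, 16 without female left replicate 1, 12 without female right replicate 3, 4 without male left replicate 1, and 39 without the low-count filter. The thinned share was 1.89 ± 0.262% in male and 1.5045 ± 0.178% in female pools, a difference of -0.390 points (exact permutation p 0.02, and 0.04 after adjustment over the shares by side and by sex; the smallest p possible was 0.005). This difference was not past 0.05 without the 2 pools against their sex label (-0.338 points, exact p 0.05), without the clusters of other classes (-0.338 points, exact p 0.08) or without thinning, where the shares were 3.51 ± 0.486% and 3.31 ± 0.590% (exact p 0.46).

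The cluster makeup of neurons differed between pools as well. Cluster 7 made up 6.71 ± 4.78% of neurons in male and 4.39 ± 3.58% in female pools, and cluster 27 made up 0.660 ± 0.530% and 0.456 ± 0.408%. On the pools' own makeup, plain P2ry1 CPM were 11.8 ± 1.74 in male and 8.82 ± 1.27 in female pools (exact permutation p 0.015). With the makeup held fixed at that of all neurons, P2ry1 was 10.8 ± 1.21 CPM in male and 9.48 ± 1.595 CPM in female pools (exact permutation p 0.135), and 11.1 ± 1.18 and 9.16 ± 1.56 CPM without the 2 pools against their sex label (exact permutation p 0.0833). By side it was 10.6 ± 1.67 CPM on the left and 9.69 ± 1.34 CPM on the right (exact permutation p 0.255). The side difference did not depend detectably on sex in 4 tests of the interaction, with exact permutation p from 0.28 to 0.63.

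**Figure D5:**
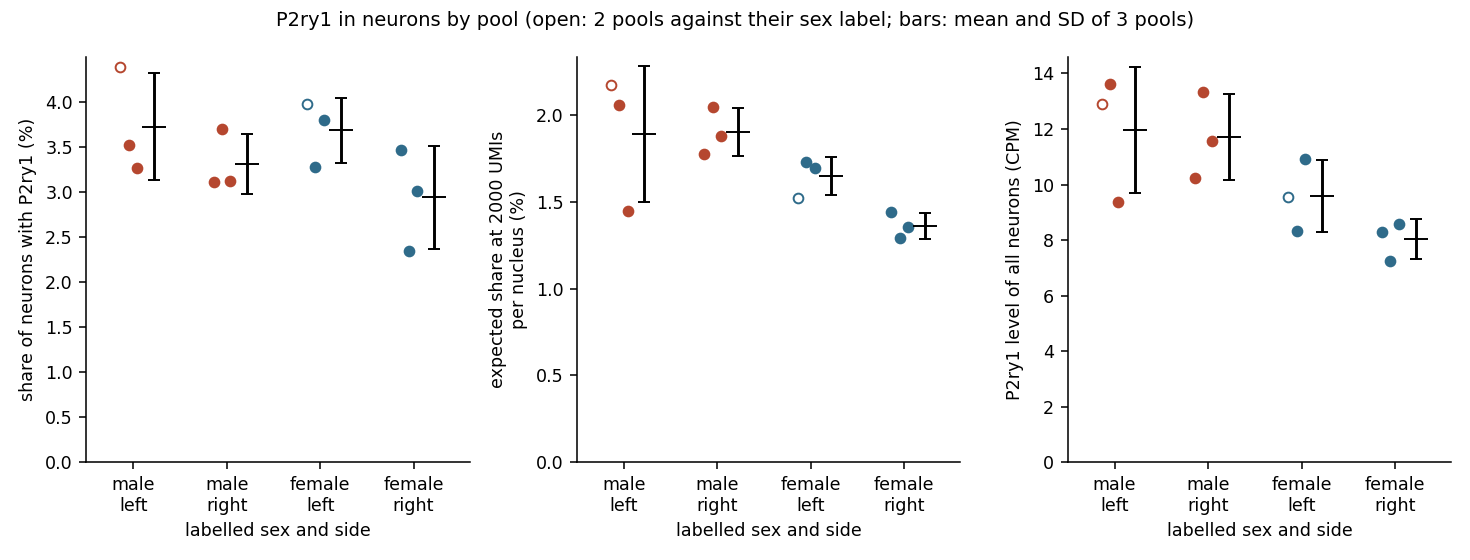
Share of neurons with P2ry1 (percent), the share when each neuron is thinned to 2000 UMIs (percent) and the P2ry1 level of neurons (CPM) in 12 pools by labelled sex and side; each point is 1 pool, bars are mean and SD of 3 pools, and open points are the 2 pools that went against their sex label. Female pools lie between 7.23 and 10.9 CPM and male pools between 9.37 and 13.6 CPM, with overlap.

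Among the P2ry1 nuclei themselves, no gene was called between sides or between labelled sexes. Of 7414 genes tested by edgeR, 0 (0%) passed an adjusted p of 0.05 by side and 0 (0%) by sex, with 451 and 402 genes at an unadjusted p under 0.05. DESeq2 called 0 in both. The gene with the smallest p by side was Kcna2, at 531 ± 75.9 CPM in right and 722 ± 82.4 CPM in left pools (-0.44 ± 0.11, adjusted p 0.528). By sex the X-linked gene Kdm6a, which escapes X inactivation, was among those with the smallest p, at 164 ± 40.3 CPM in female and 94.9 ± 27.5 CPM in male pools (0.73 ± 0.18, adjusted p 0.831). Without the 2 pools against their sex label, 7 genes were called by sex, among them Kdm6a (1.05) and the Y-linked Kdm5d (-4.86) and Eif2s3y (-4.22). Leaving out female left replicate 1 alone gave 5 genes, and leaving out male left replicate 1 alone gave 1. Without male right replicate 2, Kcna4 (-1.03) and Kcna1 (-0.70) were called by side. Each pool gave 48 to 145 P2ry1 nuclei to these sums, which limits the differences they can show.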

How the data were processed

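The authors deposited UMI counts per gene and nucleus for 30560 genes. Per the submitters' processing notes, R 4.3.2, Seurat 4.1.3 and the mRatBN7.2 build were used, and for the aligner the name is not given in the sources used here. These deposited counts were used as raw counts, and pools were read from the nucleus table. No doublet caller was run and no nucleus was removed. Members and gene lists were chosen with earlier results of these data known.

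Counts were summed per pool and group, and genes were tested with edgeR 4.0.16 (R 4.3.3, quasi-likelihood test, TMM normalisation, low-count filter, pool as a block for P2ry1 nuclei against other neurons), with Benjamini-Hochberg adjustment over all genes tested and a threshold of 0.05. DESeq2 1.42.0 was an alternative. CPM by pool are TMM-normalised, and CPM by cluster and by marker list are plain. In the depth-matched comparison, each P2ry1 nucleus brought the 3 unused other neurons of its pool nearest in UMIs. Thinned shares are the expected share at 2000 UMIs per nucleus.

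Clusters used 2000 variable genes, 30 principal components, 20 neighbours and Leiden resolution 1 (leidenalg 0.10.2, igraph 0.11.9, scikit-learn 1.9.0), without P2ry1, Slc17a6, Snap25 and Scn10a. A cluster counted as of another class when 5 or more markers of a non-neuronal class were at least 2-fold higher. This class, and results without it, were added after seeing the data. Shares were compared by exact permutation with numpy 2.4.6 and scipy 1.17.1, two-sided.

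Named genes were the 15 highest and 12 lowest by log2 fold change among those called in both the full and the depth-matched comparison, changed the same way in at least 10 of 12 pools and at 20 CPM or more in the higher group, and the first 8 in each direction within a cluster. On simulated data the edgeR comparison of P2ry1 nuclei with other neurons called 50 of 50 genes at each log2 change of 1, -1, 2 and -2, and 13 of 12058 unchanged genes. These counts hold for simulated data only, and the accuracy of the calls in the deposited data was not tested. A few genes that these rules or lists hold are counted and not reported here by name.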

Additional observations from a re-analysis of the deposited data

Results flagged for a closer look

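P2ry1 was also read in nuclei that the comparisons of neurons did not use. Of the 5569 nuclei that failed the neuronal condition, 122 (2.19%) held a P2ry1 UMI, at a median depth of 1301 UMIs. No background from free RNA was measured for them. In 16 sets of 6 pools tested for a sample far from the others, 0 had one.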

How the results depend on the processing

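Of 180 recomputed summary values, 161 kept their direction and side of the threshold, or stayed within 1.5 times for counts. The lower female share of neurons with P2ry1 (-0.390 points) was not called without thinning (-0.205), at 1000 UMIs (-0.105), without nuclei of 3 or more glial UMIs (-0.271), without the clusters of other classes (-0.338, or -0.209 without thinning as well) or without the 2 pools against their sex label (-0.338). Leaving out 1 pool at a time gave -0.48 to -0.335 for it and -0.221 to -0.0575 by side. The P2ry1 level by sex was called by DESeq2 (-0.45) and not by edgeR, and without 1 pool was -0.51 to -0.38, and -0.23 to -0.11 by side.

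Genes called between P2ry1 nuclei and other neurons numbered 5124, against 3221 with depth matching, 3289 without glial-rich nuclei and 2517 with depth matching and without the clusters of other classes, and 4694 to 5076 without 1 pool. Within cluster 6 the count was 254, or 435 without the low-count filter and 195 to 274 without 1 pool. In cluster 14 it was 964, and 598 with depth matching, which was incomplete there. By side, 0 genes became 34 without the filter and 0 to 2 without 1 pool. By sex, 0 became 31 without the filter, 7 without the 2 pools and 0 to 5 without 1 pool. Called clusters numbered 18 to 21 without 1 pool. Cluster 16 reversed (-0.0693 points) without glial-rich nuclei, and cluster 20, with a difference of 1.58 points that was not called, reversed there (-0.477) and with depth matching (-0.380), and was called without female left replicate 2 (1.88). Necab1 in cluster 6 reversed without the filter (0.53, adjusted p 0.884). Beyond what the settings' own construction fixes (fewer nuclei or genes), the cause was not tested.

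Replicate numbers did not pair left with right pools: correlations of deviations ran from -0.258 to 0.347 over 6927 genes, and 1 of 6 was best with its own number. With the replicate block, the share by side was -0.138 (exact permutation p 0.375), the P2ry1 level by side -0.17 (edgeR adjusted p 0.799) and genes by side 0. Without the pool as a block, 4941 genes were called, and 208 within cluster 6. Most P2ry1 nuclei (869 of 1054) held 1 P2ry1 UMI, so neurons without one cannot be called negative.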
